A study of Mus musculus with 6 samples.

Results

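The genes described here are those of major histocompatibility complex (MHC) antigen presentation in the mouse. They are the protein-coding genes whose GENCODE vM21 name begins with H2-, together with B2m, Tap1, Tap2, Tapbp, Erap1, Nlrc5, Ciita and Cd74. The rule uses names only, with no measured value. It gave 42 of the 55536 annotated genes, 34 of them H2- genes, and 37 of the 42 lie on chromosome 17. The members comprised 24 class I heavy chain genes, 6 class I assembly and control genes, 11 class II genes and H2-Ke6, a steroid dehydrogenase gene of the region that codes for no MHC chain.

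RNA was measured by sequencing in 6 libraries of RAW264.7 cells, a virus-transformed mouse macrophage line. Controls were cells given PBS (3 libraries) and the treated group was cells given titanium (Ti) particles (3 libraries). The labels give both groups the C57BL/6 background and no other allele or agent, and they do not say whether replicates were separate cultures. P-values therefore measure only the spread between these libraries, which may be technical. The sources used here do not state the dose or the time of exposure. RAW264.7 is generally described as coming from a BALB/c mouse, whose H2 alleles differ from those of C57BL/6, the strain of the reference annotation. Whether reads of another allele were lost from the highly variable H2 genes was not tested. It is a single tumour-derived line, which limits it as a model of tissue macrophages.

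Class I molecules sit on nearly all nucleated cells and display peptides made in the cytosol. Each is a heavy chain bound to beta-2 microglobulin (B2m). The TAP transporter (Tap1, Tap2) carries peptides into the endoplasmic reticulum, ERAP1 trims them and tapasin (Tapbp) holds the empty molecule while it is loaded. Class II molecules belong to professional antigen presenting cells and display peptides from endosomes. The invariant chain (Cd74) escorts the alpha and beta chains there, and the H2-DM and H2-DO proteins steer the exchange of its remnant for peptide. NLRC5 is the transactivator of class I genes and CIITA that of class II genes, and interferon gamma is known to raise both sets in macrophages.

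Levels are given as CPM, rescaled estimated counts relative to the size of each library. Of the 42 members, 21 passed the filter on low counts and were tested, 11 heavy chains, all 6 assembly and control genes, 3 class II genes and H2-Ke6. None of the 21 passed the adjusted threshold of 0.05 in edgeR's quasi-likelihood test. The share of all 15376 tested genes that passed was 0.013% in each direction, so a count of 0 is near the background. At an unadjusted p under 0.05, edgeR, DESeq2 and limma voom each gave 1 member, H2-K1, against 6.76%, 8.53% and 10.2% of all tested genes. When replicate numbers were entered as a block, edgeR's unadjusted p was 0.0752 for H2-K1, 0.0213 for H2-M3 and 0.0433 for Tap1, and again no member passed the adjusted threshold. DESeq2 put 1.06% of genes past its adjusted threshold as higher and 0.839% as lower, and voom 0.0325% in each direction, and no member was among them. The lowest adjusted p of a member was 0.729 in edgeR, 0.321 in DESeq2 and 0.448 in voom.

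**Figure D1:**
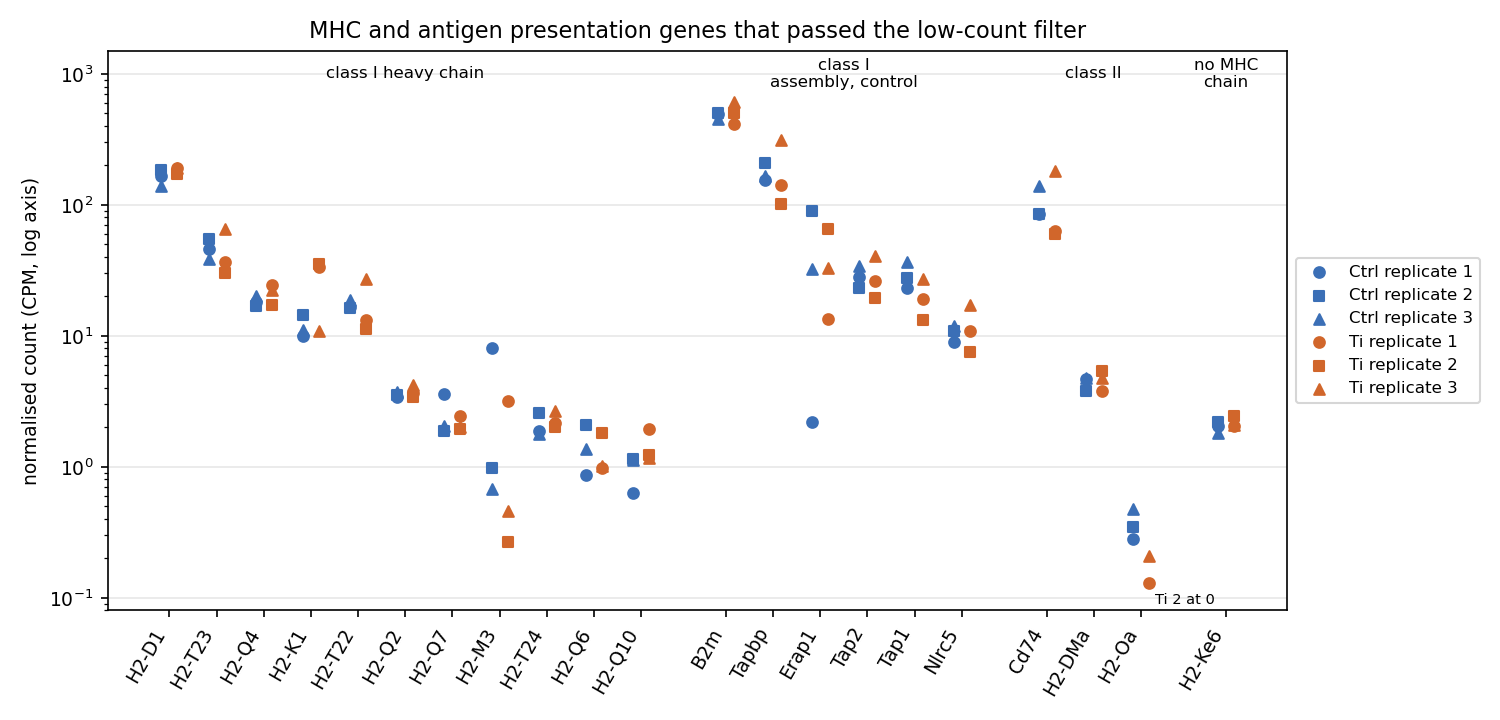
Level of the 21 tested members in each library, in CPM on a log axis (blue, control; orange, Ti; circles, squares and triangles, replicates 1, 2 and 3; the value of 0 of H2-Oa in Ti replicate 2 is written, not drawn). B2m stands at 413.8 CPM or more in every library, and H2-Oa at less than 0.5 CPM.

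The class I pathway was expressed in all libraries of both groups, and B2m was its most abundant member. Per kilobase of transcript, which allows levels of different genes to be compared, B2m stood at 559.9 ± 32.3 CPM per kb in controls and 591 ± 112 in Ti cells (mean ± SD, n = 3, as for all such means). Next in the controls were Cd74 of the class II pathway (103 ± 33.1 CPM per kb), then H2-D1 (95.5 ± 10.1) and Tapbp (71.8 ± 9.66). The ranges of Cd74 and H2-D1 over the control libraries overlapped, so these neighbours in the order do not differ beyond their spread. H2-T23 followed at 29.5 ± 5.86 CPM per kb and H2-K1 at 18.8 ± 6.65. The H2-K1 value rests mostly on H2-K1-215, a retained intron transcript of 457 bases with 7.14 ± 3.39 CPM in the controls. Coding transcripts of H2-K1, such as H2-K1-201 with 1619 bases, together had 4.43 ± 1.01 CPM there. The place of H2-K1 in this order therefore depends on that short transcript. Tap2, Tap1, H2-T22 and H2-Q4 lay between 9.47 and 10.9 CPM per kb in the controls, within one another's spread, and Erap1 at 9.36 ± 9.70. The other 10 tested members lay between 0.312 (H2-Oa) and 4.38 (H2-DMa).

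H2-D1, a classical heavy chain gene that presents peptides to CD8 T cells, lies at 35262730-35267499 on the plus strand of chromosome 17 (GRCm38, as all coordinates here). Its CPM was 166, 186 and 140.3 in control replicates 1, 2 and 3 and 191, 173 and 189.8 in Ti replicates 1, 2 and 3. The groups overlapped, with the control range wider than that of the Ti libraries, and the log2 fold change of Ti over control was 0.17 ± 0.13 (SE), with a 95% interval of -0.14 to 0.48 and an adjusted p of 0.887. B2m, the shared light chain, on chromosome 2 at 122147686-122153083, had 489.8, 504 and 451 CPM in the controls and 414, 504 and 606 in the Ti libraries. The Ti libraries lay on both sides of the controls, and the log2 fold change was 0.08 ± 0.15 (95% interval -0.29 to 0.45, adjusted p 0.974). The other classical heavy chain gene, H2-K1, differed between Ti libraries and is described with its transcripts.

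The promoters of these genes carry short motifs through which class I and class II transcription is known to be controlled, so 6 promoters are shown for the members the results turn on. The letters are RefSeq's, on GRCm38.p6, from 200 bases up to the base before RefSeq's start, which can lie inside the GENCODE gene, 5′ to 3′ on the strand of the gene. Capitals mark matches, on either strand, to 4 motifs. They are the Y box (CCAAT), which NF-Y binds, the X2 core (TGACG), which the CREB family binds, a kappa B site (GGGATTCCC) and a simplified interferon response element (TTTCNNTTT). The forms of the last 2 were set after matches to longer forms had been seen. H2-D1 (chr17:35262894-35263093, plus strand) and H2-K1 (chr17:34000348-34000547, minus strand) are the classical heavy chains. B2m (chr2:122147487-122147686, plus strand), H2-T22 (chr17:36042743-36042942, minus strand) and H2-T23 (chr17:36032702-36032901, minus strand) hold the interferon response letters. H2-Aa (chr17:34287824-34288023, minus strand) is a class II chain gene at 0 in every library.
H2-D1: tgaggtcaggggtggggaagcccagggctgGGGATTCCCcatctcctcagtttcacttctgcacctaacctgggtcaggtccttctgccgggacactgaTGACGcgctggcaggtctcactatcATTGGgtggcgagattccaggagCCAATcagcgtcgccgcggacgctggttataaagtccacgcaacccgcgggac
H2-K1: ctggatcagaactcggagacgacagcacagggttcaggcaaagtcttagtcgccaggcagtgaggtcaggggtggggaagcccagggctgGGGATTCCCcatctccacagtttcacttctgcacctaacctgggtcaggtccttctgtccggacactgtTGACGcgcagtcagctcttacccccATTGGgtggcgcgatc
B2m: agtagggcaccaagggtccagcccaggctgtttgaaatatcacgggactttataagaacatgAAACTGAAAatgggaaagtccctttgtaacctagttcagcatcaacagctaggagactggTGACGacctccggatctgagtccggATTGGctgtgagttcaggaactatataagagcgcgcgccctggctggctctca
H2-T22: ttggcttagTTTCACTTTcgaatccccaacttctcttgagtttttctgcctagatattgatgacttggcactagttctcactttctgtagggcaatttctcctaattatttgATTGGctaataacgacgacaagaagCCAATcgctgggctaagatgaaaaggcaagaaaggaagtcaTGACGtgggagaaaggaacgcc
H2-T23: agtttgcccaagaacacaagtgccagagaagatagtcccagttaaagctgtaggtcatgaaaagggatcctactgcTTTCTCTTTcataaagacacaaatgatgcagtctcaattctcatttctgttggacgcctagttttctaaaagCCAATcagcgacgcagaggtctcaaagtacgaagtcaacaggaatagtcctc
H2-Aa: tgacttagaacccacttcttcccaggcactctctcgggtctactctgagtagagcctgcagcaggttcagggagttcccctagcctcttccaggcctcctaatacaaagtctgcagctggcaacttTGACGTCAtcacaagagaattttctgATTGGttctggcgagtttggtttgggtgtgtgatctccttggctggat

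RefSeq's promoter table held 35 of the 42 members, 26 of class I, 8 of class II and 1 other, and the same motifs were counted in all 32851 of its promoters over the same 200 bases. A gene was counted if any of its promoters matched, whereas the shares of the whole table are per promoter. The Y box letters stood in 21 of the 26 class I genes and in 8 of the 8 class II genes, against 29.3% of all promoters. The kappa B letters were far rarer, in 70 promoters of the whole table (0.213%). They belonged to 69 genes, and 4 of these were the heavy chain genes H2-D1, H2-K1, H2-Q6 and H2-Q7. The kappa B and interferon response forms were set after matches to longer forms had been seen. Their counts are therefore no test of enrichment. The interferon response letters stood in 4 of 26 class I genes (B2m, H2-T22, H2-T23 and H2-T3) and 1 of 8 class II genes (H2-DMa), against 7.21% of promoters, and the X2 core in 12 of 26 and 1 of 8 against 15.7%. For H2-DMa the Y box and interferon response matches lie only in its promoter at 34125318-34125517, and the promoter at 34122632-34122831 has none. The letters TTTCACTTC, which differ from the interferon response form in the last base, were not counted. They stand unmarked in H2-D1, H2-K1, H2-Q4, H2-Q6, H2-Q7, H2-Q10 and H2-M3. A promoter without a match can therefore still hold a closely related sequence. The gamma-interferon activated site TTCNNNGAA had no match in either set and 5.49% among all promoters. In H2-Aa the X2 letters overlap on both strands, so its capitals there cover a pair of matches. Several of these genes arose by duplication and share sequence, so they are not independent of one another. A match is a run of letters, and binding was not measured here.

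The remaining tested heavy chains are non-classical or Qa region genes. H2-T23, which encodes Qa-1, a ligand of the NKG2A receptor, had 45.8, 54.5 and 38.4 CPM in the controls and 36.6, 30.1 and 65.8 in the Ti libraries. Ti replicates 1 and 2 lay below all controls and Ti replicate 3 above them all, and the log2 fold change was -0.06 ± 0.32 (95% interval -0.84 to 0.71). H2-T22, whose product binds certain gamma delta T cell receptors, had the same order, with 16.5, 16.2 and 18.7 CPM in the controls and 13.2, 11.3 and 27.3 in the Ti libraries. Most of this value lay on H2-T22-205, a transcript annotated as subject to nonsense-mediated decay, with 13.6, 11.3 and 13.9 CPM and 10.1, 6.90 and 21.8 CPM. Coding transcripts made up 10.5% to 34.7% of H2-T22 across libraries. They had 1.73, 3.58 and 3.50 CPM in the controls and 2.49, 3.92 and 3.53 in the Ti libraries, without that order. H2-Q4, a Qa region gene, had 18.2, 16.9 and 20.2 CPM in the controls and 24.5, 17.3 and 22.5 in the Ti libraries, with overlapping groups and a log2 fold change of 0.22 ± 0.18. H2-Q2, H2-T24, H2-Q7 and H2-Q6 stayed between 0.86 and 4.18 CPM in every library, with log2 fold changes of 0.08, 0.14, -0.24 and -0.16 and overlapping groups. Retained intron transcripts made up 55.7% to 100% of H2-Q7 across libraries. Its coding transcripts were at 0 in control replicates 2 and 3 and in Ti replicate 3.

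H2-M3, which presents N-formylated bacterial peptides, was uneven within both groups. It had 8.13, 0.973 and 0.671 CPM in the controls and 3.20, 0.268 and 0.458 in the Ti libraries, so replicate 1 was the highest of each group and the Ti value was the lower of each same-numbered pair. The log2 fold change was -1.32 ± 1.29, with a 95% interval of -4.46 to 1.83, and without control replicate 1 it was 0.67. H2-Q10, known as a secreted class I molecule of the liver, had 0.625, 1.15 and 1.13 CPM in the controls and 1.95, 1.23 and 1.16 in the Ti libraries. It was 1 of the 2 tested members whose groups did not overlap, against 13.3% of all tested genes (6.63% with Ti higher and 6.71% with Ti lower), and its log2 fold change was 0.59 ± 0.37 (adjusted p 0.849). The margin was narrow, 1.15 CPM in control replicate 2 against 1.16 in Ti replicate 3. Coding transcripts of H2-Q10 were at 0 in control replicate 2 and Ti replicates 1 and 2. In those libraries the whole value lay on H2-Q10-203, a retained intron transcript. Of the stretches of 50 bases in H2-Q10-203, 19.7% also occur in a transcript of another gene. Of the 11 tested heavy chains, 7 had a positive and 4 a negative log2 fold change, with a median of 0.08, beside 0.0053 for all tested genes.

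The heavy chains resemble one another, and that limits how well reads can be assigned. Of the stretches of 50 bases in each main coding transcript, 48.1% in H2-T22, 34.9% in H2-Q7, 32.0% in H2-Q6, 28.8% in H2-T23 and 24.3% in H2-Q4 also occur in a transcript of another gene. The share was 14.3% in H2-D1, 8.8% in H2-K1 and 0% in B2m and Cd74. Values of the first group are therefore less certain, because the counting could move reads between copies. H2-T22, H2-T23 and H2-T24 also overlap an antisense gene, A930015D03Rik, and whether the counting used strand is not stated in those sources.

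H2-K1 had the lowest unadjusted p of the members. Its CPM was 10.004, 14.5 and 11.1 in the controls and 33.5, 35.5 and 10.8 in the Ti libraries. Ti replicates 1 and 2 lay above all controls and Ti replicate 3 inside the control range. The log2 fold change was 1.16 ± 0.46, with a 95% interval of 0.05 to 2.27, an unadjusted p of 0.0425 and an adjusted p of 0.729 in edgeR. With the replicate block it was 1.01 (unadjusted p 0.0752). With unrescaled values it was 0.78 (unadjusted p 0.053 in edgeR). It lay between 0.90 and 1.54 when each library was left out in turn.

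The annotated transcripts of H2-K1 showed where that difference lay. A single transcript of the retained intron class, H2-K1-215, stood at 4.90, 11.0 and 5.49 CPM in the controls and at 31.6, 32.8 and 5.40 CPM in the Ti libraries. It made up 48.9%, 76.2% and 49.2% of the H2-K1 value in the controls and 94.3%, 92.6% and 49.8% in the Ti libraries. The coding transcripts together had 5.05, 3.27 and 4.98 CPM in the controls and 1.76, 0.18 and 5.22 in the Ti libraries, a log2 fold change of -0.86 ± 1.02 with overlapping groups (adjusted p 0.93). Thus the direction for H2-K1 is opposite when only coding transcripts are summed. Neither value passed the test, and in a fit over 41599 single transcripts H2-K1-215 had a log2 fold change of 1.69 ± 0.75 (unadjusted p 0.0666 in edgeR). In that fit 0 of 56 tested member transcripts passed the adjusted threshold and 0 had an unadjusted p under 0.05, against 0.00481% called higher, 0.0024% called lower and 4.29% at the unadjusted level.

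H2-K1-215 spans 33996106 to 33996674 on the minus strand of chromosome 17, at the 3′ end of the gene, in 2 exons of 59 and 398 bases. Of its 457 bases, 437 lie in exons of the full coding transcript H2-K1-201 and 20 outside them, and 369 lie in its 3′ UTR. A read in the shared bases fits both transcripts, so how the value divides between them depends on how reads were assigned. None of its stretches of 50 bases occurs in a transcript of another gene. In the sum with H2-D1, which dilutes the transcript, the classical heavy chains together reached 176 ± 24.4 CPM in controls and 211 ± 12.4 in Ti cells.

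**Figure D2:**
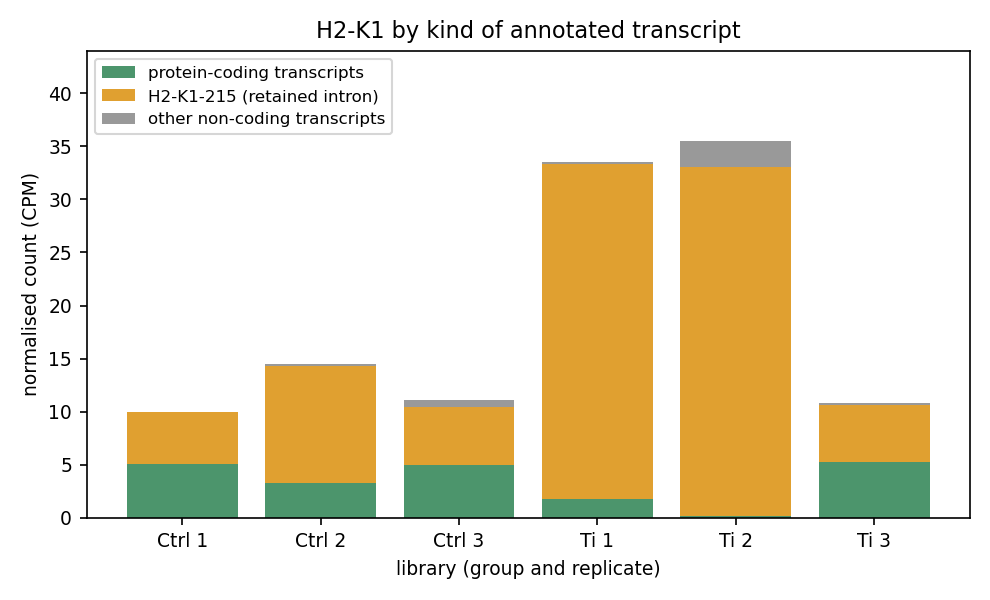
CPM of H2-K1 in each of the 6 libraries, stacked by transcript class (coding transcripts, the retained intron transcript H2-K1-215, other non-coding transcripts). The H2-K1-215 segment is 31.6 and 32.8 CPM in Ti replicates 1 and 2 and 11.0 CPM or less in the other libraries.

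Among the assembly genes, Tapbp, which encodes tapasin, had 155, 207 and 166 CPM in the controls and 142, 102 and 314 in the Ti libraries. Ti replicates 1 and 2 lay below every control and Ti replicate 3 above every control, so the log2 fold change of 0.08 ± 0.42 averages libraries that lie on opposite sides. Tap2, a subunit of the peptide transporter, had 28.2, 23.3 and 34.2 CPM in the controls and 26.2, 19.6 and 40.4 in the Ti libraries. Ti replicate 2 was its lowest library and Ti replicate 3 its highest, with a log2 fold change of 0.01 ± 0.30. Its partner subunit Tap1 had 23.3, 27.6 and 36.6 CPM in the controls and 19.0, 13.2 and 27.1 in the Ti libraries. The groups overlapped, with Ti replicates 1 and 2 below every control, and the log2 fold change was -0.56 ± 0.31 (95% interval -1.30 to 0.19, adjusted p 0.823). The Ti value of Tap1 was the lower of each same-numbered pair. With the replicate block its log2 fold change was -0.59 (unadjusted p 0.0433 in edgeR), and it did not pass the adjusted threshold.

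Tap1 and Tap2 carry much of their value on transcripts annotated as retained introns, 27.6% to 84.0% and 63.1% to 86.8% across libraries. Tap1 overlaps Psmb9 on the opposite strand, and Tapbp overlaps Zbtb22 on the same strand, so reads in the bases Tapbp shares with Zbtb22 cannot be told apart, and those of Tap1 and Psmb9 only if the counting used strand. Other tested members that overlap a gene on the opposite strand include Erap1 (Cast), B2m (Patl2), H2-DMa (Brd2), Tap2 (Gm15821 and Gm20496) and H2-Q4 (Gm11131). Nlrc5, the class I transactivator, had 8.91, 10.8 and 11.9 CPM in the controls and 10.9, 7.58 and 17.2 in the Ti libraries, with overlapping groups and a log2 fold change of 0.17 ± 0.32. Erap1, the trimming peptidase, was uneven within groups, with 2.19, 89.1 and 32.1 CPM in the controls and 13.5, 64.8 and 32.8 in the Ti libraries. Control replicate 1 was the lowest and control replicate 2 the highest of all 6 libraries, and the 95% interval of its log2 fold change ran from -2.98 to 2.68. A retained intron transcript, Erap1-202, stood at 10.3 CPM or less in the controls and in Ti replicate 1, and at 40.6 and 21.8 CPM in Ti replicates 2 and 3. Coding transcripts alone gave Erap1 a log2 fold change of -1.18 ± 1.10 (adjusted p 0.897), against -0.15 ± 1.16 for all transcripts. Over the 6 assembly and control genes, 4 log2 fold changes were positive and 2 negative, with a median of 0.04.

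**Figure D3:**
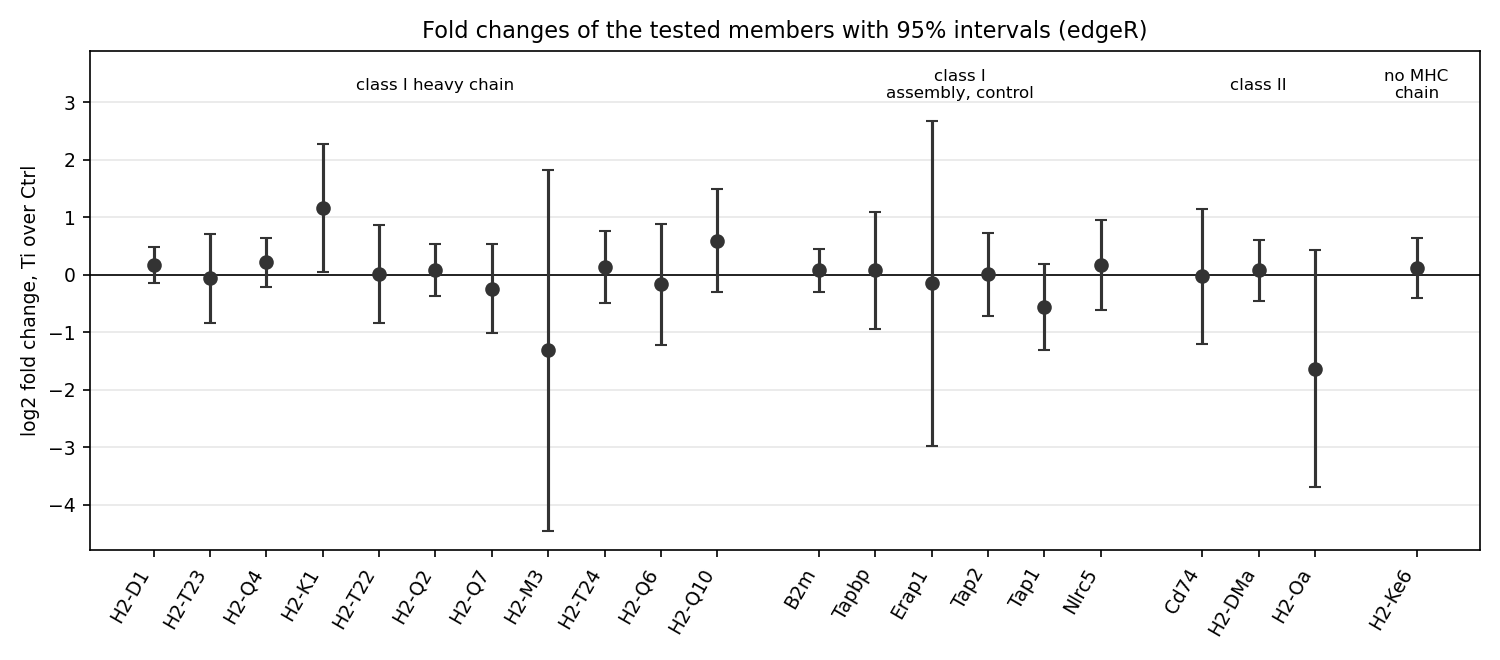
Log2 fold change of Ti over control for the 21 tested members (points) with 95% intervals from edgeR (bars), grouped by role. The interval of H2-K1 runs from 0.05 to 2.27 and the other 20 include 0, with the widest for H2-M3 and Erap1.

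The class II chains were at or near 0 in both groups, while the invariant chain was abundant. Summed over the class II alpha and beta chain genes H2-Aa, H2-Ab1 and H2-Eb1, the counts were 0, 3 and 2 in the controls and 3, 0 and 0 in the Ti libraries. A count of 3 corresponds to 0.0498 to 0.0796 CPM, depending on the library, and is the most that a count of 0 allows when only counting error is considered. A difference between groups was therefore not detectable at this depth. Ciita, the class II transactivator, had counts of 2, 0 and 2 in the controls and 0, 1 and 0 in the Ti libraries.

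Cd74, which encodes the invariant chain and also a cell surface receptor for the cytokine MIF, had 85.6, 85.5 and 139 CPM in the controls and 63.4, 60.1 and 181 in the Ti libraries. Replicate 3 was the highest of each group, Ti replicates 1 and 2 lay below every control, and the log2 fold change was -0.03 ± 0.48 (95% interval -1.20 to 1.15). H2-DMa, the alpha chain of the peptide exchange factor H2-DM, had 4.67, 3.77 and 4.77 CPM in the controls and 3.82, 5.36 and 4.74 in the Ti libraries, with overlapping groups and a log2 fold change of 0.07 ± 0.22. Of the genes for its partner beta chain, H2-DMb1 had counts of 1, 0 and 0 in the controls and 0, 0 and 2 in the Ti libraries, and H2-DMb2 had 0 in each control and 0, 35 and 66 in the Ti libraries (0.938 and 1.37 CPM in Ti replicates 2 and 3). H2-DMb2 did not pass the filter on low counts and was given no test. Of the stretches of 50 bases in H2-DMb1-201, 27.2% also occur in H2-DMb2, and 26.8% of those in H2-DMb2-201 occur in H2-DMb1. How the counts divide between these 2 genes is therefore less certain.

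H2-Oa, the alpha chain of the H2-DO modulator, had rescaled counts of 18, 14 and 20 in the controls and 6, 0 and 10 in the Ti libraries. These correspond to 0.281, 0.349 and 0.479 CPM and 0.129, 0 and 0.208 CPM. All Ti values lay below all control values, and the log2 fold change was -1.64 ± 0.85 (adjusted p 0.816). It was -2.38 without Ti replicate 3 and lay between -2.38 and -1.12 when each library was left out in turn. It overlaps the gene BC051537. Its partner H2-Ob had counts of 0, 0 and 2 in the controls and 0 in each Ti library. Over the 3 tested class II members the median log2 fold change was -0.03, with 1 positive and 2 negative, and without Ti replicate 3 it was -0.74. The class I median over 17 tested genes was 0.08, with 11 positive and 6 negative. No test of the difference between the class I and class II medians was made.

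The 21 members that were not tested were 13 heavy chain genes, 7 class II genes and Ciita. Of these, 13 had a count of 0 in every library, 11 heavy chains and the class II genes H2-Aa and H2-Eb2. Another 7 reached 1 to 4 counts in some library, and H2-DMb2 was the remaining one. Among the silent heavy chains were H2-M1 and H2-M10 genes, whose expression is known from the vomeronasal organ. H2-Ke6, the member that codes for no MHC chain, had 2.03, 2.19 and 1.82 CPM in the controls and 2.06, 2.44 and 2.08 in the Ti libraries, a log2 fold change of 0.12 ± 0.21. Its transcripts share 44.5% to 96.3% of their stretches of 50 bases with another gene model, Gm20427, so its level is uncertain.

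Ti replicate 3 differed from the other Ti libraries in many of these genes. It was the highest of all 6 libraries in 9 of the 21 tested members (42.9%), against 19.1% of all tested genes. Ti replicate 2 was the lowest in 9 of the 21 (42.9%), against 18.3%. The ratio of Ti replicate 3 to the mean of Ti replicates 1 and 2 was over 1.5 in 8 of 21 members (38.1%) and in 14.6% of all tested genes. It was 2.94 for Cd74, 2.58 for Tapbp, 2.22 for H2-T22, 1.97 for H2-T23, 1.87 for Nlrc5, 1.77 for Tap2 and 1.68 for Tap1, and 3.23 for H2-Oa, which has at most 10 counts in a Ti library. The ratio of H2-T22 is that of all its transcripts, and its coding transcripts in Ti replicate 3 (3.53 CPM) lay between those of Ti replicates 1 and 2. B2m (1.32) and H2-D1 (1.04) differed less, and H2-K1 had the opposite order (0.314).

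Relative to the mean of the controls, the median of the 6 assembly and control genes was -0.27, -0.51 and 0.42 on the log2 scale in Ti replicates 1, 2 and 3. Without Ti replicate 3 the log2 fold change of Tapbp was -0.53, that of H2-T22 -0.48, that of Tap2 -0.32 and that of Cd74 -0.74, and 0 members passed the adjusted threshold. The lists of partners held other genes that were highest in this library, 8 of 20 tested regulators and 6 of 12 immunoproteasome and loading partners. Its ratio to the other Ti libraries was 3.35 for Irf8, a macrophage transcription factor, and 3.59 for Stat2, which carries interferon signals. The proteasome subunit Psmb10, which is induced by interferon, had a ratio of 1.64. Psmb9 and Irf1, which interferon also induces, had ratios of 1.03 and 1.13. The ratio of control replicate 3 to the mean of control replicates 1 and 2 was 3.20 for Stat2, 1.80 for Irf8 and 1.63 for Cd74. It was 1.44 for Tap1, 1.33 for Tap2, 1.21 for Nlrc5 and 1.14 for H2-T22. For Tapbp (0.919) and H2-T23 (0.765) it was below 1. Control replicate 3 was the highest of all libraries in 2 of the 21 tested members (9.52%), against 18.6% of all tested genes. What part any of these genes has in the values of the members was not tested.

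**Figure D4:**
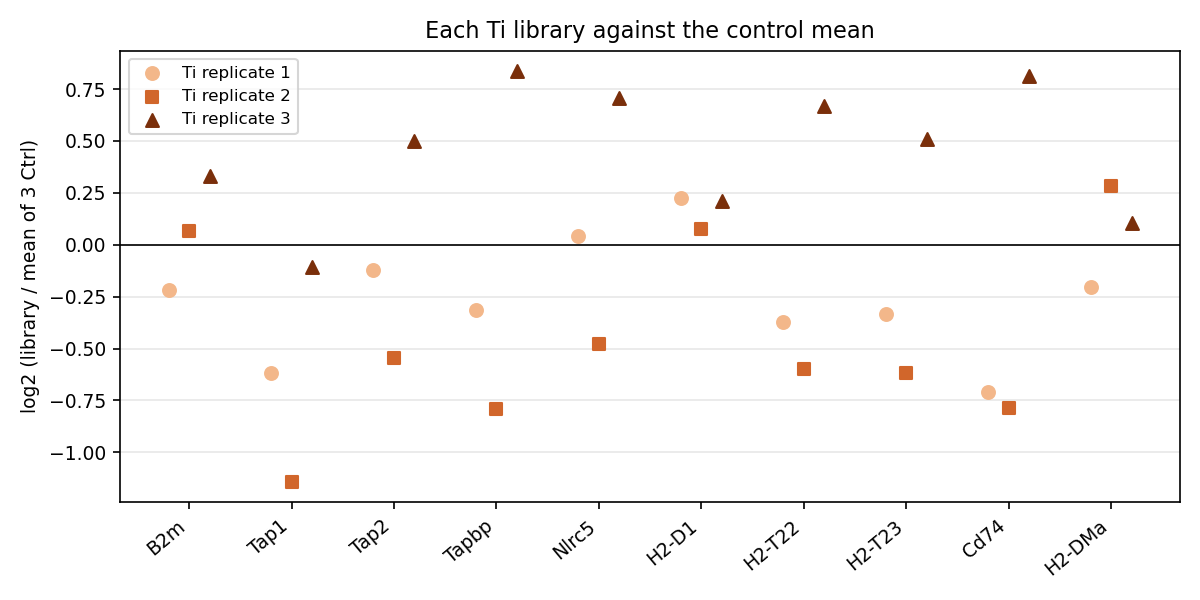
Log2 ratio of each Ti library to the mean of the 3 controls for 10 members (circles, squares and triangles, Ti replicates 1, 2 and 3; the line at 0 is the control mean). For Cd74, Tapbp, H2-T22, H2-T23, Tap2 and Nlrc5 the triangle lies apart above the other marks.

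Other genes of the 2 pathways were measured from lists of partners, and 0 of them passed the adjusted threshold in edgeR. Of 12 immunoproteasome and peptide loading partners, 4 had a positive and 8 a negative log2 fold change (median -0.06), and none had an unadjusted p under 0.05. Calr (calreticulin), a chaperone of the loading complex, was uneven within groups, with 194, 821 and 630.4 CPM in the controls and 77.1, 701 and 869 in the Ti libraries. Its relative Canx (calnexin) was steady, at 905, 967 and 811 CPM and 874, 878 and 869 CPM. Of 20 regulators, 11 were positive and 9 negative (median 0.03), and in 3 the groups did not overlap, against 13.3% of all tested genes. Irf1, the interferon-induced factor that acts on class I promoters, had 10.04, 20.05 and 13.8 CPM in the controls and 7.92, 8.17 and 9.09 in the Ti libraries, with all Ti values below all controls and a log2 fold change of -0.80 ± 0.27 (adjusted p 0.640). Ifngr1, a chain of the interferon gamma receptor, had 33.0, 29.9 and 27.3 and 25.0, 15.9 and 23.1 CPM, again with no overlap, and a log2 fold change of -0.49 ± 0.20 (adjusted p 0.736). Rfxank, a subunit of the RFX factor that binds class II promoters, lay the other way, with 4.46, 3.89 and 4.63 CPM in the controls, 5.62, 4.98 and 5.97 in the Ti libraries and a log2 fold change of 0.35 ± 0.18 (adjusted p 0.816).

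Of 9 genes of the endosomal pathway that prepares class II peptides, 8 were tested, 6 positive and 2 negative (median 0.15). In 4 of the 8, Lgmn, Ctsl, Slc11a1 and Cd9, the groups did not overlap and the unadjusted p was under 0.05. Among all tested genes 13.3% did not overlap and 6.76% had such a p. Lgmn, a protease that cuts the invariant chain, had 325, 331 and 311 CPM in the controls and 222, 203 and 235 in the Ti libraries, a log2 fold change of -0.55 ± 0.09 (adjusted p 0.218). Ctsl, the cathepsin that can finish that cleavage, had 220.4, 217 and 223 CPM and 261, 272 and 297 CPM, a log2 fold change of 0.33 ± 0.09 (adjusted p 0.458). Slc11a1, a metal transporter of the phagosome, had 30.5, 14.9 and 27.0 CPM in the controls and 84.2, 75.6 and 71.1 in the Ti libraries, a log2 fold change of 1.67 ± 0.28 (adjusted p 0.226). Cd9, a tetraspanin found with class II molecules, was the other gene, with a log2 fold change of 0.35 ± 0.10 (adjusted p 0.502). Ctss, the main invariant chain protease of macrophages and dendritic cells, had 315, 314 and 302 CPM and 268, 295 and 369 CPM.

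Rescaled totals of annotated transcripts were 37686020 to 60242937 per library. Of 9 macrophage markers 8 were tested, 4 with a positive and 4 with a negative log2 fold change, and Mertk was close to 0. Their sum was 5484 to 7271 CPM in controls and 6740 to 8586 CPM in Ti cells, most of it from Lyz2. Single markers were less even. Csf1r had 472, 1462 and 1598 CPM in the controls and 1387, 144 and 435 in the Ti libraries. Markers of B cells, of T and NK cells and of fibroblasts each summed to at most 0.0625 CPM in every library. Dendritic cell markers summed to 6.83 to 21.2 CPM in controls and 31.9 to 39.6 CPM in Ti cells, most of it from Itgax. All 3 tested dendritic markers had positive log2 fold changes, 1.12 ± 0.43 for Itgax with no overlap between groups, 1.35 ± 1.11 for Zbtb46 and 0.57 ± 0.36 for Xcr1 (adjusted p 0.705 to 0.913 in edgeR). The groups overlapped for Zbtb46 and Xcr1. Zbtb46 had 1.09, 0.574 and 0 CPM in the controls and 2.12, 1.07 and 1.12 in the Ti libraries. Clec9a had counts of 0 in each control and 0, 7 and 24 in the Ti libraries. Siglech lay the other way, with counts of 4, 0 and 6 in the controls and 0 in each Ti library. Flt3, Ccr7 and Cd209a were at or near 0. What part these markers have in the values above was not tested, and in bulk RNA fewer cells of a type and less RNA per cell cannot be told apart.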

How the data were processed

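Total RNA of 6 RAW264.7 libraries, 3 given PBS and 3 given Ti particles, was grouped by the labels. The authors deposited estimated counts, written as whole numbers, in 187351 rows of transcripts for each library. HISAT2, StringTie and the build mm9 are listed in the submitters' processing notes, with no version, and no source used here names the counting tool. The annotated transcripts, 141862 rows, are exactly those of GENCODE vM21 (GRCm38), which gave gene names and coordinates. The other 45489 rows, assembled transcripts holding 36.9% to 51.2% of the deposited totals (456595115 to 773215120), name no gene and were left out. Deposited values rise with genomic span, so each estimated count was rescaled by the ratio of exon length to genomic span before genes were summed and rounded. Rescaled counts are no longer reads, and floors and intervals based on it are approximate.

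All 55536 genes entered one fit with edgeR 4.0.16 (TMM, filterByExpr, quasi-likelihood) in R 4.3.3, and 15376 were tested, with Benjamini-Hochberg adjustment over all of them at 0.05. CPM uses TMM-scaled library sizes, and CPM per kb divides each transcript by its exon length. Standard errors are the log2 fold change over the square root of F. An exact permutation test of 3 against 3 libraries cannot go below p = 0.1, so none was used for single genes. DESeq2 1.42.0, limma 3.58.1 voom with quality weights, DESeq2 size factors, no filter, a mean of at least 50 counts, unrescaled values, the replicate number as a block and leaving out each library were the alternatives tried, and the closing section gives their effect. Tables and plots used Python 3.11.15, pandas 2.3.3 and matplotlib 3.10.9.

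Same-numbered control and Ti libraries deviated together (correlations across genes 0.110, 0.144 and 0.266, other pairs -0.170 to 0.0402), so the numbers appear to pair the libraries, which rests on the data and is not in the labels. Printed values come from the fit without the block unless the block is named. On simulated data drawn 3 times for 15376 genes of this comparison, edgeR recovered 1.67% of 2-fold and 42.3% of 4-fold changes, with 8.97% of its calls false. Members and lists were chosen with earlier results of these data known. Every tested member could be named, others only from the lists of partners and markers. Promoters are from RefSeq (GRCm38.p6).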

Additional observations from a re-analysis of the deposited data

How the results depend on the processing

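No member passed the adjusted threshold, higher or lower (0 in each direction), in any of the 15 alternative settings. Of 312 refits of single members, 273 kept their direction and 39 turned it, 16 of these outside the fits that left out a library. Only 6 members had the same sign in every fit. With the replicate block, which changed no adjusted call, the class I median was 0.06 and the class II median -0.19, and Erap1 (0.65), Tap2 (-0.0378), Tapbp (-0.0797) and H2-T22 (-0.10) changed sign. With voom, B2m (-0.0559), Erap1 (0.74), Tap2 (-0.0263), Tapbp (-0.21) and H2-T22 (-0.19) did so, with medians of -0.0263 for class I and -0.27 for class II. Without a filter on low counts, Tap2 (-0.00176) and H2-T22 (-0.000415) did so. Summing only coding transcripts, an alternative chosen after seeing the data, turned Tap2 (-0.18), H2-K1 (-0.86), H2-Q10 (-0.52), Cd74 (0.18) and H2-DMa (-0.12). The medians were then -0.0042 for 16 class I and 0.0308 for 2 class II genes, the opposite order. For H2-K1 this removes H2-K1-215 by construction, and for the others the cause was not tested. Unrescaled values lowered the sum of H2-K1 and H2-D1 to 53.0 CPM in controls and 61.3 CPM in Ti cells. Leaving out each library in turn gave medians of -0.07 to 0.22 for class I and -0.74 to 0.20 for class II, the lowest of the latter without Ti replicate 3. The log2 fold changes then ran from -0.0659 to 0.20 for B2m, -0.74 to 0.25 for Cd74, -0.83 to 1.11 for Erap1, -0.0422 to 0.20 for H2-DMa, -3.16 to 0.67 for H2-M3, -0.0051 to 0.14 for H2-Q2, -0.51 to 0.20 for H2-Q6 and -0.41 to 0.11 for H2-Q7. They ran from -0.48 to 0.24 for H2-T22, -0.47 to 0.15 for H2-T23, -0.19 to 0.41 for Nlrc5, -0.32 to 0.22 for Tap2 and -0.53 to 0.37 for Tapbp. At this depth members with a few counts per library, among them all class II chains, allow no comparison.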

Other observations

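Class I-like genes that lie outside the H2 region were also measured. Of 8 listed, 4 were tested, 1 with a positive and 3 with a negative log2 fold change (median -0.48), and 0 passed the adjusted threshold in edgeR. Fcgrt, the neonatal Fc receptor heavy chain that pairs with B2m, had 2.77, 3.52 and 2.83 CPM in the controls and 1.52, 1.88 and 1.37 in the Ti libraries. All Ti values lay below all controls, with a log2 fold change of -0.93 ± 0.24 and an adjusted p of 0.458 in edgeR. Hfe, the iron-regulating partner of B2m, had 16.4, 15.1 and 17.6 CPM in the controls and 9.25, 11.5 and 15.1 in the Ti libraries, a log2 fold change of -0.45 ± 0.21. Raet1e, a ligand of the NKG2D receptor, had 7.52, 7.18 and 6.71 CPM in the controls and 18.9, 20.2 and 5.95 in the Ti libraries. As in H2-K1, Ti replicates 1 and 2 lay above all controls and Ti replicate 3 near them, and the log2 fold change was 1.07 ± 0.45 (adjusted p 0.744). Lilrb4a, an inhibitory receptor of myeloid cells, had 32.4, 33.1 and 135 CPM in the controls and 102, 108 and 293 in the Ti libraries, with replicate 3 the highest of each group.

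Some H2 genes annotated as pseudogenes in C57BL/6 also gave counts. H2-T10, which shares sequence with H2-T22, had rescaled counts of 40, 9 and 84 in the controls and 40, 44 and 85 in the Ti libraries. H2-T-ps had 13, 14 and 12 in the controls and 12, 6 and 12 in the Ti libraries, and H2-Q5 had 6, 2 and 8 in the controls and 5, 3 and 17 in the Ti libraries. H2-Ea-ps, the pseudogene of a class II alpha chain, was at 0 in every library.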
